A study of Mus musculus with 10 samples.

Results

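The regions bound by SMAD2/3 in mouse endoderm made with Activin A were asked for HEB in cells of the same day treated with the receptor inhibitor SB431542. The members were the 11033 regions of the Endoderm SMAD2/3 list, out of 78261 regions in the 6 lists of the series, and the second list held 10145 HEB regions after 2 mitochondrial ones were left out. A SMAD2/3 region was said to have HEB with SB431542 when the 2 regions overlapped by at least 1 bp, which was the case for 3726 regions (33.8%, 95% CI 32.9 to 34.7). The median overlap was 509 bp. The 5 regions just inside the limit shared 5, 8, 11, 56 and 82 bp with HEB, and the 5 just outside lay 12, 15, 23, 28 and 31 bp from it.

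Binding was measured by ChIP-seq, in which DNA fragments held by an antibody are sequenced and compared with input chromatin. All cells came from CGR8, an embryonic stem cell (ESC) line. The Endoderm+SB cells received 10 µM SB431542 at day 2 for 48 hours, and the labels can be read as giving it together with Activin A or in its place. The Endoderm cells received 100 ng/ml Activin A from day 2, in serum-free medium, without inhibitor, and both were taken at day 4. SMAD2/3 was analysed here without SB431542 only, so whether SMAD2/3 left a site under the inhibitor was not measured in the data used here. HEB lists of the Endoderm cells without inhibitor and of ESCs with and without SB431542 (10 µM, 24 hours) served to describe the same sites. Each group had 1 ChIP library, so no test across samples was possible. Intervals are exact Clopper-Pearson intervals of counting error over regions and do not hold the spread between cultures. The lists give no RNA levels, so the endoderm identity of the cells was not checked by expression. The Endoderm SMAD2/3 and Endoderm+SB HEB lists held 2600741 and 2141712 ChIP tags. Their median regions held 171 and 155 ChIP tags, against 19 and 18 input tags. The Endoderm HEB list was longer than the Endoderm+SB HEB list, with 18981 regions and 5051930 ChIP tags. A lower share of treated cells with bound HEB and less HEB per cell cannot be told apart in such libraries, nor can a direct effect of the inhibitor and a different mix of cell states at day 4.

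Activin and Nodal bind paired type II and type I receptor kinases, which phosphorylate SMAD2 and SMAD3. These join SMAD4, enter the nucleus and bind DNA weakly by themselves, usually beside factors such as FOXH1 or EOMES. SB431542 blocks the kinase of the type I receptors ALK4, ALK5 and ALK7. Tcf12 encodes HEB, one of the E proteins, whose basic helix-loop-helix dimers bind the E-box CANNTG. In the early embryo the pathway switches on its own ligand Nodal and its inhibitors Lefty1, Lefty2 and Cer1, and drives mesendoderm genes such as Eomes and Gsc.

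Promoters of 4 genes with SMAD2/3 over the 5′ end are printed here. At that SMAD2/3 region HEB was listed at Gsc and Lhx1 with and without SB431542, and at Nodal and Cer1 without SB431542 only. The HEB regions need not cover the printed bases. By the listed distances to the 5′ end, the Nodal HEB region (60881647 to 60882464 in mm9) lay outside them. So did the Lhx1 HEB region with SB431542 (84339379 to 84339701). The letters are the 250 bases before the gene start on the gene's strand, from RefSeq, build GRCm38.p6, at chr12:104473237-104473486 (Gsc, minus strand), chr11:84525535-84525784 (Lhx1, minus), chr10:61417722-61417971 (Nodal, plus) and chr4:82885152-82885401 (Cer1, minus). Capitals mark E-boxes (CANNTG).
Gsc: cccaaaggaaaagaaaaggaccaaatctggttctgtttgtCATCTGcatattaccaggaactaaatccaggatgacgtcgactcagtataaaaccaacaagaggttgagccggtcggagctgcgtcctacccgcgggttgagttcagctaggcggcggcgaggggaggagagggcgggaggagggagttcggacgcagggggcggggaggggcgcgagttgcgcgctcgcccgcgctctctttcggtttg
Lhx1: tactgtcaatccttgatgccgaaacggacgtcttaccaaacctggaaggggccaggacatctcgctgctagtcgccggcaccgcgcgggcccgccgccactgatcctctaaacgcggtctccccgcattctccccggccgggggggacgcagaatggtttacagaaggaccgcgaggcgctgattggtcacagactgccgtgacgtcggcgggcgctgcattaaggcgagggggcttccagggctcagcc
Nodal: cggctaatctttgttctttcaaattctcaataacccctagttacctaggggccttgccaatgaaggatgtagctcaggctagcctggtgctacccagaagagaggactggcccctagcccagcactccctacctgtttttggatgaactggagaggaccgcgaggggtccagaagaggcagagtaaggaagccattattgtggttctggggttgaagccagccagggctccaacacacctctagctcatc
Cer1: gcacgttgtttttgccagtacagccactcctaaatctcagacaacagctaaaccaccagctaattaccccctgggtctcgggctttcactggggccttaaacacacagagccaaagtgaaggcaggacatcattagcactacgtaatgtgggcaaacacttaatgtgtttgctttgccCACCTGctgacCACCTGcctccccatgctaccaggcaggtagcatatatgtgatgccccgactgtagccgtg
The windows of Gsc and Lhx1 hold 22 and 26 CpG dinucleotides, and those of Nodal and Cer1 hold 3 and 5. Over all such windows read, the median was 20 CpG both with and without HEB under SB431542.

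HEB summits lay close to SMAD2/3 summits in both HEB lists. In the 2882 regions with HEB in both lists, the SMAD2/3 summit, the position of greatest ChIP height, was a median of 18 bp from the HEB summit with SB431542 and 16 bp from the one without. The distance was at most 100 bp in 85.6% (95% CI 84.3 to 86.9) of these regions with SB431542 and in 86.3% (85.0 to 87.6) without it. Seen from the HEB list, 3744 of the 10145 Endoderm+SB HEB regions (36.9%, 36.0 to 37.9) overlapped Endoderm SMAD2/3. This share was 30.6% in the lowest quintile of HEB height and 43.3% in the highest. It was 48.6% among promoter-proximal HEB regions, those within 1 kb of a listed gene's 5′ end, and 30.7% among the others.

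Activin-state SMAD2/3 sites at promoters had HEB under the inhibitor more often than sites elsewhere. Of 3348 promoter-proximal SMAD2/3 regions 1688 (50.4%, 95% CI 48.7 to 52.1) had HEB with SB431542. The share was 26.3% (24.8 to 27.8) of 3429 regions with a gene listed but farther from its start, and 26.7% (25.4 to 28.0) of 4256 regions with no gene listed, with overlapping intervals. It was 53.7% (51.8 to 55.6) where the region lay over the 5′ end and 36.9% (33.2 to 40.8) within the first kb beside it. Between 1 and 10 kb it was 28.2%, between 10 and 50 kb 24.6%, and beyond 50 kb 26.6%. Conversely, 45.3% of SMAD2/3 regions with HEB under SB431542 were promoter-proximal, against 22.7% of those without. The gap between promoter-proximal and other regions was 23.9 points in the whole lists and 9.16 points with the upper 50% of each list by ChIP height.

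**Figure D1:**
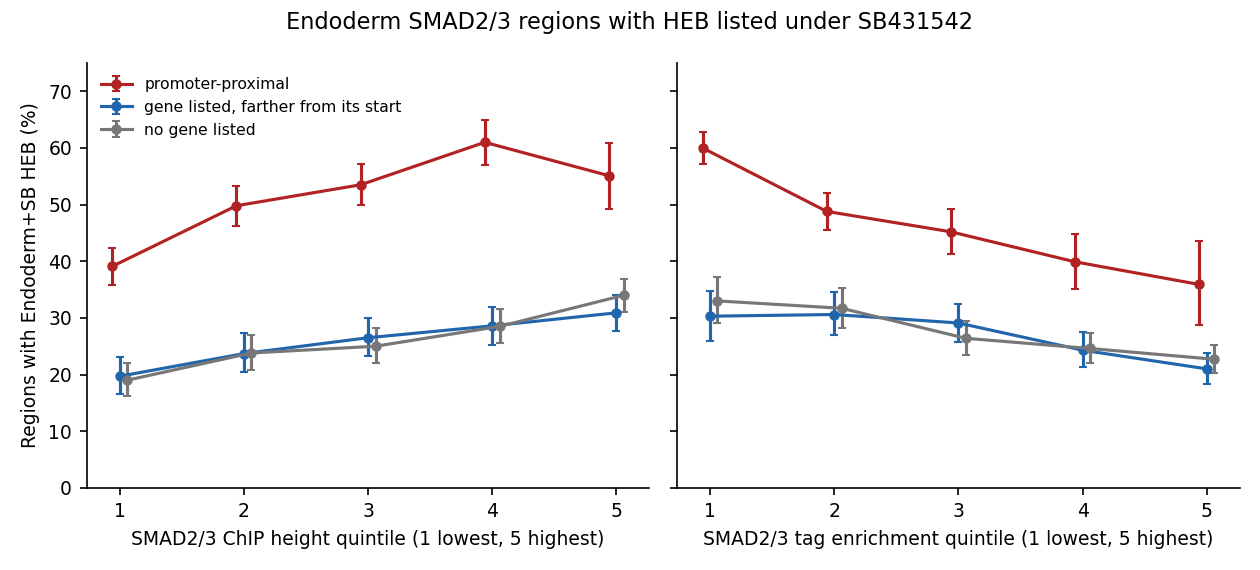
Share of Endoderm SMAD2/3 regions with Endoderm+SB HEB (vertical axis, percent) by quintile of SMAD2/3 ChIP height (left) and of SMAD2/3 tag enrichment (right), for promoter-proximal regions (red), regions with a gene farther away (blue) and regions with no gene listed (grey); bars are 95% intervals. Among promoter-proximal regions the share was 39.1% in the lowest, 61.0% in the fourth and 55.1% in the highest quintile of height, and 60.0% in the lowest and 35.9% in the highest quintile of enrichment.

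The share by strength of the SMAD2/3 site depended on how strength was measured. ChIP height is the authors' peak height in the region, and over its quintiles (5 equal parts of the list), from lowest to highest, HEB with SB431542 was listed at 27.0%, 33.3%, 35.4%, 37.5% and 35.7% of regions. The lowest quintile reached heights of 25.0 to 27.8 and the highest 53.5 to 1594. Of the lowest quintile 39.0% was promoter-proximal, and of the highest 13.8%. Among regions with no gene listed the share was 19.0% (16.3 to 22.0) in the lowest and 34.0% (31.1 to 36.9) in the highest quintile. Among promoter-proximal regions it was 39.1% (35.8 to 42.4) in the lowest and 55.1% (49.3 to 60.8) in the highest. Tag enrichment is the authors' measure of ChIP over input tags. At some regions it was lower than the plain ratio of these counts, as at Skil (4958 ChIP and 42 input tags, enrichment 96.2). Tag enrichment gave the opposite order. The share was 47.3% (45.2 to 49.4) in its lowest and 23.0% (21.3 to 24.8) in its highest quintile. The lowest quintile also had the higher share within each of the 3 locations, with 33.0% in the lowest and 22.7% in the highest for regions with no gene listed.

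Input moved with the result. SMAD2/3 regions with HEB under SB431542 held a median of 37.0 input tags per kb, against 31.2 per kb in those without, and were wider, with medians of 644 and 501 bp. Over quintiles of input per kb, the share with HEB under SB431542 was 16.3% in the lowest and 49.3% in the highest. Among regions with no gene listed it was 14.6% in the lowest and 37.2% in the highest quintile of input. Among promoter-proximal regions it was 28.1% in the lowest and 66.8% in the highest. Of the lowest quintile of input 18.9% was promoter-proximal, and of the highest 42.2%. The part of input and width in the overlap was not tested. A total of 12 SMAD2/3 regions held over 100 input tags, all 12 with HEB under SB431542, and the share without them was 33.7%.

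HEB under the inhibitor was more frequent at SMAD2/3 sites that also had HEB without it. Endoderm HEB overlapped 6679 of the 11033 SMAD2/3 regions (60.5%). With all lists limited to the length of the shorter one, Endoderm HEB overlapped 4313 of 10145 SMAD2/3 regions. HEB with SB431542 was then at 34.4% of them. Of these 6679 regions 2882 (43.2%, 95% CI 42.0 to 44.3) had HEB with SB431542, against 844 of the 4354 without Endoderm HEB (19.4%, 18.2 to 20.6). The rest of the SMAD2/3 list comprised 3797 regions (34.4%) with HEB without SB431542 only and 3510 (31.8%) with neither. At promoters the shares were 70.8% with and 33.4% without Endoderm HEB, and at regions with no gene listed 34.5% and 10.2%. The gap of 23.8 points between regions with and without Endoderm HEB was 13.7 points when all lists were limited to the length of the shorter one. The 844 regions with HEB under SB431542 alone were promoter-proximal in 72.0% (68.9 to 75.0). The regions with HEB in endoderm without inhibitor alone were so in 11.7% (10.7 to 12.8). Of all regions in each list, 34.5% of Endoderm+SB HEB, 15.1% of Endoderm HEB and 30.3% of Endoderm SMAD2/3 regions were promoter-proximal. HEB peaks at the 844 regions were low, with a median height of 30.0 on a list that began at 25.0.

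**Figure D2:**
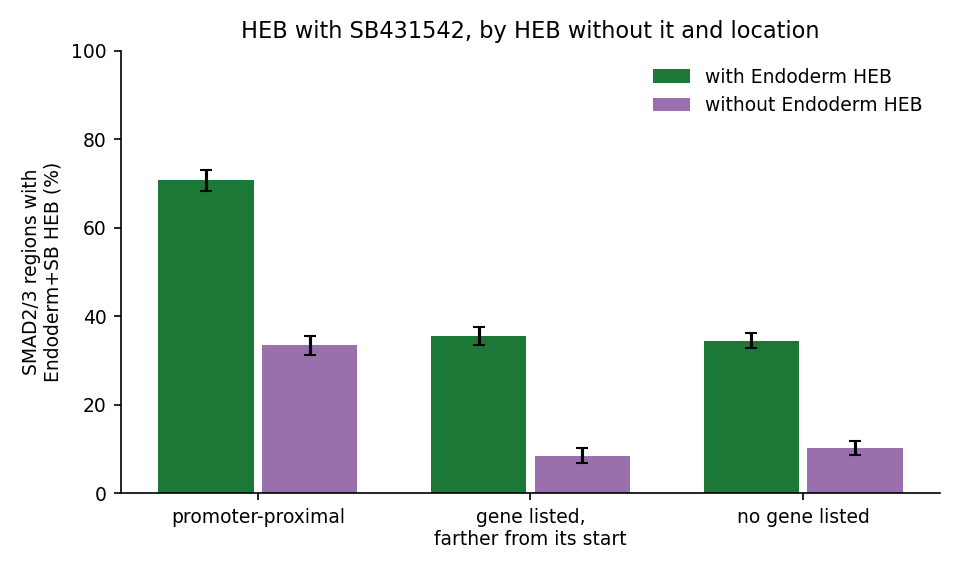
Share of SMAD2/3 regions with Endoderm+SB HEB (vertical axis, percent) in the 3 locations, for regions with (green) and without (purple) Endoderm HEB; bars are 95% intervals. In every location the share was higher with Endoderm HEB, at 70.8% against 33.4% in promoter-proximal regions.

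Away from promoters, SMAD2/3 regions with higher HEB in endoderm without inhibitor had HEB under the inhibitor more often. From the lowest to the highest quintile of Endoderm HEB height the share was 25.0%, 30.8%, 32.5%, 37.1% and 43.7%. At promoter-proximal regions it had no steady course, at 67.9% (64.1 to 71.6), 78.9% (74.8 to 82.5), 70.7% (64.5 to 76.4), 59.2% (50.3 to 67.8) and 65.6% (54.8 to 75.3). Compared with HEB bound elsewhere, HEB at SMAD2/3 sites was more often listed under the inhibitor. Of the 6703 Endoderm HEB regions with SMAD2/3 43.1% (41.9 to 44.3) had HEB with SB431542, against 15.5% (14.9 to 16.2) of the 12278 without SMAD2/3. Standardized over quintiles of HEB height and location, the shares were 37.9% and 17.5%.

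At the 2882 SMAD2/3 regions with HEB in both lists, the median HEB height was 39.2 with SB431542 and 47.8 without it. Heights have no stated scaling between libraries and are not read as a change. A region enters this set only with a height of at least 25.0 in both lists. HEB without SB431542 had a median height of 34.2 at the 1080 promoter-proximal regions, close to that limit, and of 69.1 at the 1802 others. The lowest ratio that the 2 heights can take therefore differs between the locations, and the ratio was not compared.

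**Figure D3:**
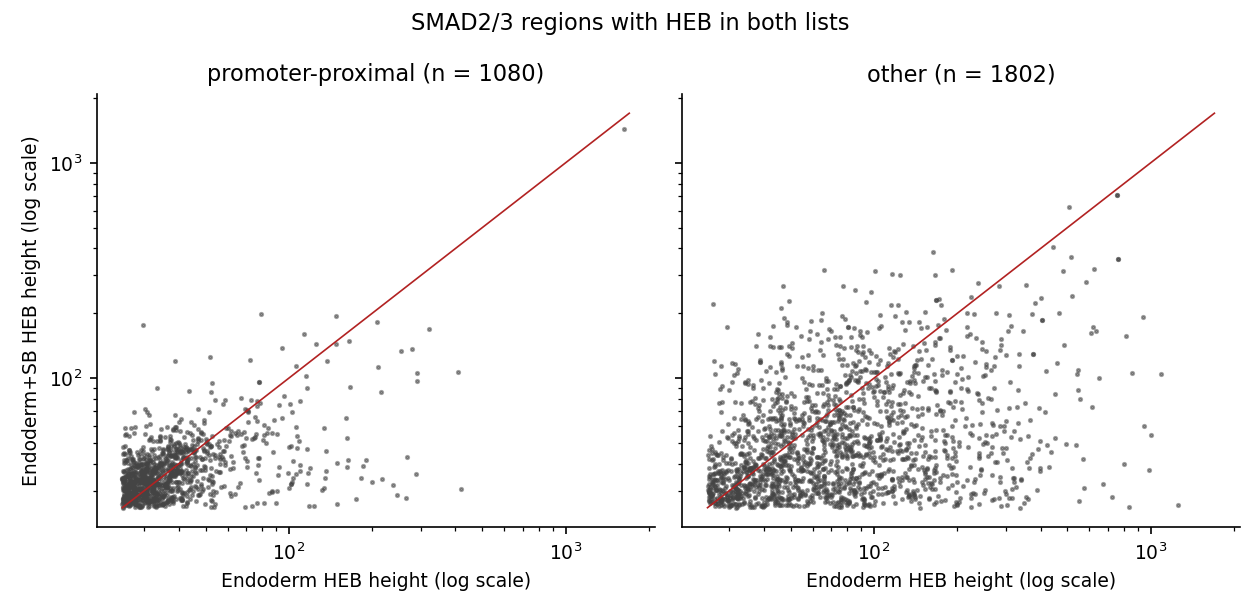
HEB height with SB431542 (vertical axis) against HEB height without it (horizontal axis), both on log scales, at SMAD2/3 regions with HEB in both lists; the line marks equal heights. Both lists begin at 25.0, and the median height without SB431542 was 34.2 in promoter-proximal regions (left, 1080), near that limit, and 69.1 in other regions (right, 1802).

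Sites with HEB in SB-treated ESCs were frequent among those with HEB under SB431542 at day 4. HEB of Endoderm+SB cells was listed at 58.2% (95% CI 56.6 to 59.7) of the 3838 SMAD2/3 regions with ESC+SB HEB, against 20.8% (19.8 to 21.7) of the other 7195. Among regions without Endoderm HEB the shares were 39.6% and 12.9%. At the 1057 regions with HEB in SB-treated but not in untreated ESCs the share was 54.5%, and at the 446 with HEB in untreated ESCs alone it was 30.7%. Regions with SMAD2/3 already in ESCs had HEB under SB431542 in 43.7% (41.2 to 46.1), against 32.1% (31.2 to 33.1) of those without ESC SMAD2/3.

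By the authors' assignment, which pairs regions with genes they overlap or that are at most 1 kb away, 5246 genes had Endoderm SMAD2/3. HEB with SB431542 overlapped at least 1 SMAD2/3 region at 2547 of them (48.6%, 95% CI 47.2 to 49.9), and HEB without SB431542 did so at 2980 (56.8%). It overlapped every SMAD2/3 region of 1927 genes and some of those of 620. Another 517 genes had HEB with SB431542 elsewhere only, and 2182 (41.6%) had none. The share of 48.6% was 45.0% for genes with 1 SMAD2/3 region and 71.6% for those with 3 or more, and 29.7% with the upper 50% of each list.

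The 4 marker genes, each known as a component or target of activin and Nodal signalling, divided. Skil, which encodes SnoN, a repressor of SMAD transcription, had 1 SMAD2/3 region over its 5′ end (chromosome 3, 30992519 to 30995167 in build mm9). Its HEB height there was 26.3 with SB431542 and 81.2 without, beside a SMAD2/3 height of 680.4. The HEB peak with SB431542 was thus close to the lowest height its list holds. Smad7, an inhibitory SMAD, had HEB over the 5′ end (chromosome 18, 75525953 to 75528136) at 39.6 with SB431542 and 46.5 without, beside a SMAD2/3 height of 237. Its other 2 SMAD2/3 regions, inside the gene, had HEB without SB431542 only, at 65.6 and 28.4. Eomes encodes a T-box factor that definitive endoderm needs, and the SMAD2/3 region with HEB (chromosome 9, 118395383 to 118397135) lay 8076 bp from its gene start. HEB reached 79.0 with SB431542 (312 ChIP and 14 input tags) and 239 without (2121 and 61 tags) there, and SMAD2/3 reached 206. A smaller Eomes region nearer the gene start, with a SMAD2/3 height of 26.9, had no HEB in either list. Nodal, the ligand, had a SMAD2/3 region of height 959 over its 5′ end (chromosome 10, 60880503 to 60882523), with no HEB with SB431542 and HEB at 85.6 without it. The nearest HEB region with SB431542 lay 22652 bp away. Of these 4 genes, Skil, Smad7 and Eomes had HEB listed under the inhibitor and Nodal did not.

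On a list of 29 genes of the Nodal/activin pathway and its targets, 21 had Endoderm SMAD2/3, where 23.1% of protein-coding symbols did. HEB with SB431542 was at a SMAD2/3 region of 10 of the 21 (47.6%, 95% CI 25.7 to 70.2), close to the 48.6% of all SMAD2/3 genes, and HEB without SB431542 at 16, where 56.8% of all SMAD2/3 genes had it. Those with HEB under the inhibitor included SMAD genes and genes of inhibitors and repressors (Smad3, Smad6, Smad7, Skil, Ski, Bambi, Tgif1, Tgif2 and Dact2). Those without it also held inhibitors, and comprised the ligands Nodal and Gdf1, the co-receptor gene Tdgf1, the receptor Acvr1b, the cofactor Foxh1, the secreted inhibitors Lefty1, Lefty2, Cer1 and Fst, the feedback inhibitor Pmepa1 and the latent binding protein Ltbp1. Of these 11, Lefty2, Fst, Acvr1b, Gdf1 and Ltbp1 had no HEB without SB431542 either. Of all 55 SMAD2/3 regions of the list, 19 had HEB with SB431542 and 34 had HEB without it, where 33.8% and 60.5% of all SMAD2/3 regions did.

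Tdgf1, which encodes Cripto, had a SMAD2/3 height of 707, no HEB with SB431542 and HEB at 201 without it, and the nearest HEB region with SB431542 was 292604 bp away. Pmepa1, which takes SMAD2 and SMAD3 away from the receptor, had 11 SMAD2/3 regions, the highest at 429 over the 5′ end. HEB overlapped 0 of the 11 with SB431542 and 4 without it. The nearest HEB region with SB431542 lay 57332 bp from the highest Pmepa1 region. It lay in a SMAD2/3 region of height 1009 with no gene listed (chromosome 2, 173159403 to 173161953). HEB there was at 41.6 with SB431542 and 303 without. Cer1, a secreted Nodal antagonist, had SMAD2/3 at 176 and no HEB with SB431542, against a HEB height of 622 without it. Smad6, an inhibitory SMAD, had HEB over the 5′ end at 34.1 with SB431542 and 37.0 without. Bambi, a pseudoreceptor that inhibits TGF-beta signalling, had 30.9 with SB431542 and 25.6 without. Tgif2, a homeodomain corepressor, had 61.2 with SB431542 and 31.4 without. Ski had its highest SMAD2/3 region (226) without HEB under SB431542, and 2 of its 4 regions with it. At some regions without HEB the inhibitor list had a region close by, 12 bp from a Tgif1 region, 37 bp from the highest Dact2 region and 735 bp from that of Fst.

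The Lefty1 and Lefty2 locus on chromosome 1 had no HEB under SB431542 at the SMAD2/3 regions of either gene. Within 50 kb of their SMAD2/3 regions lay 12 SMAD2/3 regions, of which 1 had HEB with SB431542, at BC031781, and 9 had HEB without it. The Lefty1 region over the 5′ end (182863354 to 182865651) had a SMAD2/3 height of 426 and a HEB height of 306 without SB431542. A region with no gene listed 7742 bp from it (182854268 to 182855612) reached a SMAD2/3 height of 1314, the second highest of the list, and a HEB height of 334 without SB431542. Another one 3076 bp from the Lefty2 region (182818009 to 182819879) reached 720.4, with HEB at 109.5 without SB431542. Neither had HEB with it, and their nearest such regions lay 72814 and 36555 bp away.

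**Figure D4:**
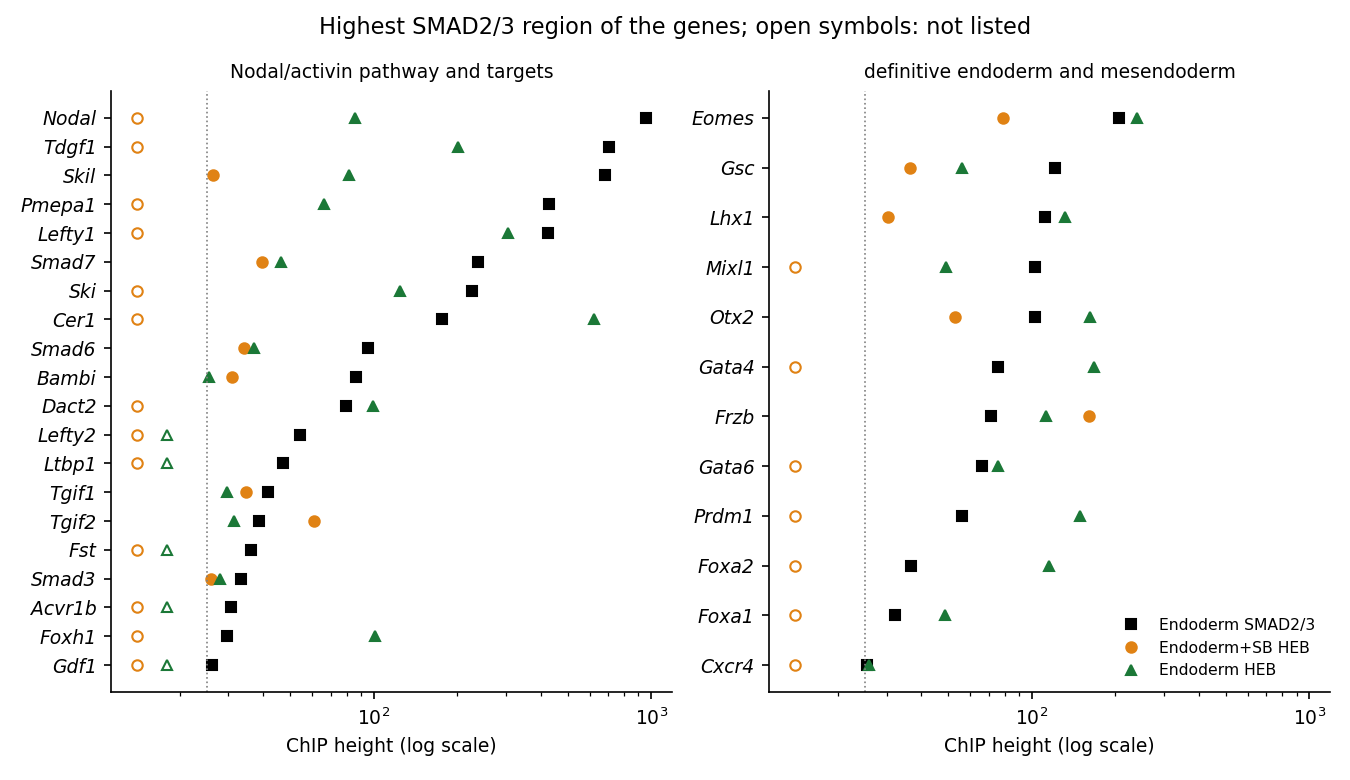
ChIP heights (horizontal axis, log scale) of SMAD2/3 (squares), of HEB with SB431542 (circles) and of HEB without it (triangles) at the highest SMAD2/3 region of genes of the Nodal/activin (left) and the endoderm list (right); open symbols mark lists without a region there and the dotted line the lowest listed height of 25.0. Nodal, Tdgf1, Lefty1 and Cer1 have open circles, and the HEB heights of Skil were 26.3 with and 81.2 without SB431542.

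Of 21 definitive endoderm and mesendoderm genes 12 had Endoderm SMAD2/3, against 23.1% of protein-coding symbols. HEB was at a SMAD2/3 region of 6 of the 12 with SB431542 (50.0%, 95% CI 21.1 to 78.9) and of all 12 without it. The shares of all SMAD2/3 genes were 48.6% with and 56.8% without SB431542, so the share with the inhibitor is near that of all genes. The 6 with HEB under SB431542 were Eomes, the homeobox genes Gsc, Lhx1 and Otx2, the zinc finger gene Gata4 and Frzb, a secreted Wnt antagonist. Gsc, of the organizer, had HEB at 36.5 with SB431542 and 56.0 without, beside SMAD2/3 at 121. Lhx1, needed for head formation, had HEB at 30.3 with SB431542 and 132 without, and Otx2, of the anterior embryo, at 52.7 and 162. Frzb had a HEB height of 161 with SB431542 and 113 without. The 6 without HEB under SB431542 were Mixl1, Foxa1, Foxa2, Gata6, Cxcr4 and Prdm1. At Foxa2, the forkhead pioneer factor of endoderm, HEB stood at 115 without SB431542 over a SMAD2/3 region of height 36.8, and at Mixl1, a homeobox gene of the primitive streak, at 49.1 over a region of 103. Gata6, an endoderm zinc finger gene, had no HEB with SB431542 and HEB at 75.4 without it, at a SMAD2/3 region of height 66.0. The highest SMAD2/3 region of Gata4 (75.3, 5444 bp from the 5′ end) had HEB without SB431542 only, at 168, while its region over the 5′ end had HEB in both lists, at 29.2 with SB431542 and 84.5 without. T, Foxa3, Sox17, Sox7, Hhex, Hnf4a, Dkk1 and Kit had no SMAD2/3 region assigned, and none of these had HEB with SB431542 assigned either.

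Few genes of the other lists had SMAD2/3, so their shares have wide intervals, and they stand against 23.1% of protein-coding symbols with SMAD2/3. HEB was at a SMAD2/3 region of 48.6% of all SMAD2/3 genes with SB431542 and of 56.8% without. Of 8 pluripotency genes with SMAD2/3, 3 had HEB there with SB431542 and 7 without. Sall4, a zinc finger regulator of ESCs, had HEB at 76.5 with SB431542 and 188 without, and Sox2 and Tbx3 also had both. Nanog and Pou5f1, the core pluripotency factors, had HEB without SB431542 only, at 75.2 and 96.5, as had Esrrb and Utf1, while Klf4 had neither. Of 8 neuroectoderm genes with SMAD2/3, 6 had HEB with SB431542 and 6 without, among them the paired-box genes Pax7 and Pax3 and the zinc finger gene Zic2. The highest SMAD2/3 regions of Pax7 and Zic2 had HEB without SB431542 only, at 121 and 76.0, and another region of each had it in both lists. Pax3 reached HEB heights of 165 with SB431542 and 635 without. With or without SMAD2/3, HEB with SB431542 was assigned to 15 of the 20 neuroectoderm genes, against 23.0% of protein-coding symbols, and 7 of the 15, Pax6, Zic1, Six3, Neurog1, Hes5 and Pou3f2 among them, had no SMAD2/3. In the other lists it was assigned to 4 of 20 pluripotency, 5 of 20 mesoderm, 4 of 15 extraembryonic, 6 of 7 E protein and Id and 8 of 16 Polycomb genes, of which 0, 3, 1, 3 and 3 had no SMAD2/3. Mesoderm genes had SMAD2/3 at 4 of 20, and of these Snai1 alone had HEB with SB431542 (29.9, against 86.9 without). Wnt3, a primitive streak ligand, had HEB without SB431542 only, at up to 85.9, and Pdgfra, a receptor of mesoderm, had neither. Extraembryonic genes had SMAD2/3 at 7 of 15, and Eomes, Gata3 and Sparc had HEB with SB431542. Krt8, a keratin gene, and Dab2, of extraembryonic endoderm, had HEB without SB431542 only, at 42.9 and 40.6. Among the E proteins and their inhibitors, Tcf12 itself, Tcf4 and Id1 had SMAD2/3, all 3 with HEB under SB431542. Id1, an inhibitor of E proteins, had HEB at its highest SMAD2/3 region at 59.8 with SB431542 and 284 without. At Tcf4 the heights were 34.8 with SB431542 and 32.1 without. At Tcf12, the gene of HEB, the region over the 5′ end had HEB at 25.7 with SB431542 and none without. Polycomb complex genes with SMAD2/3 numbered 7, and 5 had HEB under SB431542, with Mtf2 at 51.8 with SB431542 and 58.5 without and Cbx8 at 113 with SB431542 and 209.9 without. Cbx7 had HEB without SB431542 only.

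The highest SMAD2/3 sites divided too. Of the 20 highest, 11 had HEB with SB431542 and 19 had HEB without it, where 33.8% and 60.5% of all SMAD2/3 regions did. Of the 100 highest 39 had it with SB431542 and 96 without, and of the 500 highest 164 (32.8%) with SB431542 and 448 (89.6%) without. The HEB list without SB431542 was the longer, with 18981 regions against 10145. HEB heights were read at those of the 20 that had HEB, leaving out a region at Mir715 with 2240 input tags. They were 26.3 to 111 with SB431542 (median 40.8, 10 regions) and 81.2 to 801 without (median 203, 18 regions). These sets of regions differ, and heights without stated scaling between libraries are not read as a change. The genes with the highest SMAD2/3 region with HEB under the inhibitor included, beside Mir715, Mycl1, a MYC family gene (SMAD2/3 832, HEB 34.1 with SB431542 and 217 without), Atp8a1, a phospholipid flippase (766, 111 and 205), Skil and Fmnl2, a formin (659.5, 67.3 and 176). 9030409G11Rik, Pik3ip1, Arid3b and Eif2c1, which encodes an Argonaute protein, followed. The genes with the highest SMAD2/3 regions and HEB at none of them under the inhibitor were Nodal, Gm10584 (819), Tdgf1, Clcn4-2, a chloride transporter gene (672), and Acad11 and Ccrl1, which share 1 region (593). D18Ertd653e, Nfasc, Pmepa1 and Lefty1 completed the 10, and of the 10 only Clcn4-2 also lacked HEB without SB431542.

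Some SMAD2/3 sites had HEB under the inhibitor but not in endoderm without inhibitor. By HEB height with SB431542 the first genes were Scube2, which encodes a secreted protein of Hedgehog signalling, Dok5, an adaptor gene, Foxp4, a forkhead gene, Fignl1 and Sox2ot. The Scube2 region (chromosome 7, 116956890 to 116957763) had a SMAD2/3 height of 56.6 and a HEB height of 143 with SB431542. At Dok5 these heights were 39.1 and 124. The SMAD2/3 heights of Foxp4, Fignl1 and Sox2ot were 26.4, 25.0 and 25.3, at the lower end of the list. HEB without SB431542 was listed at 3 of the 5 SMAD2/3 regions of Foxp4 and at 1 of the 2 of Fignl1. Whether the HEB regions with SB431542 at Foxp4 and Fignl1 reached that HEB was not checked. The HEB region at Sox2ot is also the one at Sox2, where it overlapped HEB in endoderm without inhibitor, so Sox2ot is no case of HEB under SB431542 alone. In the other direction, among regions with a gene listed, the highest HEB without SB431542 where none was listed with it was at AI661453, Map3k7, which encodes the kinase TAK1, 4921506M07Rik, Cer1 and Arfgap3. At AI661453 the HEB height was 1172 without SB431542, at a SMAD2/3 region of height 72.1. At Map3k7 it was 818, at a SMAD2/3 region of height 54.1.

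For the promoters, the 250 bases before the gene start were read for genes with 1 RefSeq entry and SMAD2/3 over the 5′ end. Of the 1587 genes with SMAD2/3 over the 5′ end and HEB under SB431542, 908 had 1 entry and were read. Of the 1323 without HEB under SB431542, 721 were read. HEB here means a HEB region that overlaps the SMAD2/3 region over the 5′ end. Such a HEB region can lie outside the window, as at Nodal and Lhx1, and whether it covered the window was not checked. The median window held 20 CpG in both, against 5 in all 22862 promoters with 1 entry. In windows of at most 5 CpG, like those of Nodal and Cer1, HEB with SB431542 was listed at 28 of 78 genes (35.9%, 95% CI 25.3 to 47.6), and in those of 16 to 20 CpG at 225 of 366 (61.5%, 56.3 to 66.5). The E-box CANNTG occurred in 51.4% of windows of genes with HEB under SB431542, in 54.0% of those of genes without and in 66.3% of all promoters. It was in 66.9% of the 163 windows of genes with HEB in endoderm without inhibitor alone and in 54.2% of the 557 of genes with HEB in both. For the E-box CAGGTG, read on both strands and part of CANNTG, the shares were 27.0% and 16.2%, against 17.1% of all promoters. These sets also differed in CpG. At most 5 CpG were found in 14.1% of the 163 and 3.41% of the 557 windows, against 50.8% of all promoters. The part of CpG content in the E-box shares was not tested. The SMAD half-site CAGAC, read on both strands, was in 40.7% with HEB under SB431542, 46.0% without and 42.3% of all promoters. A match describes the letters of this window only.

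**Figure D5:**
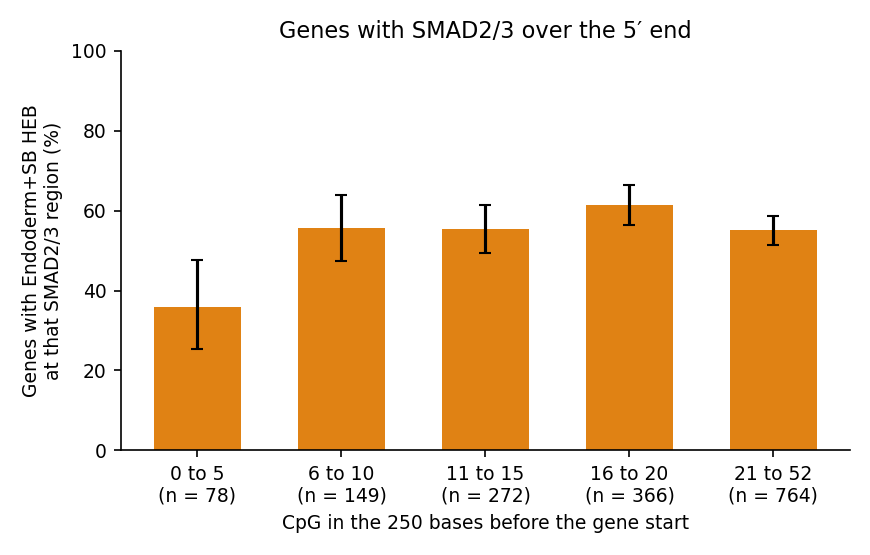
Share of genes with SMAD2/3 over the 5′ end at which HEB was listed with SB431542 (vertical axis, percent; bars are 95% intervals) by the number of CpG in the 250 bases before the gene start (horizontal axis). The share was 35.9% in windows of at most 5 CpG and between 55.1% and 61.5% in the others.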

How the data were processed

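Libraries were sequenced on a Genome Analyzer II, per the labels' protocols. CASAVA 1.8.2 and build mm9 come from the submitters' processing notes. The sources used here name no aligner or peak caller and do not say whether positions count from 0 or 1. Per the file headers, the authors deposited, for each region of 6 ChIP libraries, counts of ChIP and input tags, peak heights (a signal of unstated scaling) and the ratio of ChIP to input tags. No source states pooling. Of 74 SMAD2/3 and Endoderm+SB HEB region pairs with edges within 10 bp, 9.46% had equal input counts, against 81.4% of 177 pairs with Endoderm HEB. Which input library stands behind each list is not stated.

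Entries were reduced to 1 per region, mitochondrial regions left out and positions printed as deposited. Overlaps were computed in Python 3.11.15 with pandas 2.3.3 and scipy 1.17.1. bedtools 2.31.1 gave the same 3726 regions, and 100.0% of 4058 overlaps planted in a simulated HEB list were recovered. Quintiles are by rank. Differences of shares used a Newcombe interval to judge whether an alternative moved them. Of the gene names, 99.3% matched a GRCm38.p6 table.

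The members and the 8 gene lists were chosen with earlier results of these data known. Genes were named by rule: the 4 marker genes, the 2 pathway lists with values for the highest, the 10 highest SMAD2/3 genes with and without HEB under SB431542, and the 5 of highest HEB in 1 list alone. Values were also given for some further members of these lists, chosen after they were seen, and the printed promoters were chosen in the same way. A few genes that the rule or the lists hold are not reported here.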

Additional observations from a re-analysis of the deposited data

Results flagged for a closer look

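The Endoderm+SB HEB list held 2 regions on the mitochondrial chromosome, and the other 5 lists held none. They drew attention because they lie outside every comparison and still carried many tags. The regions had 69118 ChIP against 27409 input tags and 73905 against 31743, at tag enrichments of 2.52 and 2.33. Whether mitochondrial DNA bears on the other regions of the list was not tested.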

How the results depend on the processing

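Of 32 recomputed values, 18 stayed within the 95% interval of the reported one, 12 moved beyond it and 2 reversed. With quintiles of tag enrichment in place of ChIP height, the highest minus the lowest quintile was -24.3 points, and -14.2 when also standardized over the 3 locations; quintiles of height standardized in this way gave 14.1, against 8.69 as reported. These standardizations were chosen after seeing the data, as was that of the gap between regions with and without Endoderm HEB over location and height, which gave 29.1, and the removal of regions of over 100 input tags, which gave 33.7% of SMAD2/3 regions. With the upper 50% of each list by ChIP height, the share of SMAD2/3 regions was 23.2%, of genes 29.7% and of HEB regions 25.3%, and the gap by location was 9.16 and by Endoderm HEB 21.4 points. With all lists at the length of the shorter one, that last gap was 13.7 points and the share of HEB regions 34.6%. Counting regions up to 500 bp apart gave 35.4% of SMAD2/3 and 38.5% of HEB regions. Counting any HEB region assigned to the gene gave 58.2% of genes. The cause of these shifts was not tested. An overlap of at least 50% of the shorter region moved none of the 6 results beyond its interval. A region under a ChIP height of 25.0 could not be listed, so HEB without a listed region may still be bound. No paired analysis was possible because each group had 1 ChIP library.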

Other observations

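The SMAD2/3 sites of chromosome X are described here with no test. HEB under SB431542 was listed at 20 of 107 regions on X (18.7%, 95% CI 11.8 to 27.4) and at 33.9% (33.0 to 34.8) of autosomal ones. Away from promoters the shares were 17.4% (10.3 to 26.7) on X and 26.6% (25.6 to 27.6) on autosomes. Chromosome X held 0.970% of the SMAD2/3 list, 1.02% of the Endoderm+SB HEB list and 1.36% of the Endoderm HEB list.

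Of the 7307 SMAD2/3 regions without HEB under the inhibitor, 4.20% had such a HEB region at most 1000 bp away, 11.7% at most 5000 bp and 49.2% at most 50000 bp.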
